A study of Mus musculus with 7 samples.

Results

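The genes described here build the vacuolar proton pump and the carriers and enzymes that move bicarbonate and related anions across kidney cell membranes. They were taken by name: every symbol of the Atp6v0 and Atp6v1 subunit series, of the Slc4 and Slc26 transporter families, and the carbonic anhydrases Car2, Car4, Car12 and Car14. This gave 42 of the 12958 genes measured. Of these, 20 encode pump subunits, 9 are Slc4 transporters, 7 are Slc26 transporters and 4 are carbonic anhydrases. The other two are Atp6v0c-ps2, a processed pseudogene, and Slc4a1ap, which encodes an adaptor protein and no transporter.

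RNA was sequenced from glomeruli, the tufts of capillaries where the kidney filters blood, of 7 male mice of the BALB-C strain, which were 14 weeks old. Knockdown mice (n = 3) carried an siRNA transgene against Shroom3, which encodes an actin-binding protein found at cell junctions. Control mice (n = 4) were littermates that lacked the siRNA sequence. Doxycycline was given to all 7 mice, controls included, in their food and drinking water over 6 weeks, beginning when they were 8 weeks old. Which promoter drives the transgene is not given in the sources used here. All values are log2 expression as deposited, and a log2 fold change is the knockdown mean minus the control mean.

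The vacuolar proton pump is a rotary enzyme. Its V1 sector in the cytosol splits ATP, and its V0 sector in the membrane carries protons across. In every cell it acidifies lysosomes and endosomes. In intercalated cells of the collecting duct, a version with kidney-enriched subunits sits at the plasma membrane and secretes acid, while the anion exchanger Slc4a1 returns bicarbonate to the blood. In the proximal tubule, carbonic anhydrases and the sodium-bicarbonate cotransporter Slc4a4 reclaim filtered bicarbonate. None of these functions defines a glomerular cell, so the levels of tubule markers in these libraries are given further on.

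The windows before the start of 4 members are shown because one of these genes rose (Atp6v1g3), a pair fell (Slc26a1 and Slc4a4), and Atp6v1b1 is an intercalated cell subunit that did not pass the test. Sequences are from RefSeq on GRCm38.p6, 5′ to 3′ on the gene's strand, without any base of an annotated exon. The windows are 250 bases long for Atp6v1g3, Slc26a1 and Slc4a4, and 223 bases for Atp6v1b1. Capitals mark the forkhead core TGTTTAC or its reverse complement GTAAACA. Foxi1, a forkhead factor, is required in mice for intercalated cell genes.
Atp6v1g3 chr1:138273488-138273737, plus strand: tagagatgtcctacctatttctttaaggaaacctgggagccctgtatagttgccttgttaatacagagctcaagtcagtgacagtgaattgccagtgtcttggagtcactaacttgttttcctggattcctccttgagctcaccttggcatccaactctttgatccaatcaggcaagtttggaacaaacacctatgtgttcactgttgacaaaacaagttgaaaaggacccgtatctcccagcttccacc
Atp6v1b1 chr6:83742767-83742989, plus strand: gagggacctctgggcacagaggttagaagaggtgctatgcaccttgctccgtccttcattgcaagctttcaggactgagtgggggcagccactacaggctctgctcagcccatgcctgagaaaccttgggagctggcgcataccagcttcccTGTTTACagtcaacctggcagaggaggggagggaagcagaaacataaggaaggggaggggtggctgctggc
Slc26a1 chr5:108674797-108675046, minus strand: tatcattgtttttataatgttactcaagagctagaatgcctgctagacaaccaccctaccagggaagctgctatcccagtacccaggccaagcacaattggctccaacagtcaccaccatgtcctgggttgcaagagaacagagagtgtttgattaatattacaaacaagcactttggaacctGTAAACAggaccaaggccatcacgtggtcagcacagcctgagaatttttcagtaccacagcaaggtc
Slc4a4 chr5:89027716-89027965, plus strand: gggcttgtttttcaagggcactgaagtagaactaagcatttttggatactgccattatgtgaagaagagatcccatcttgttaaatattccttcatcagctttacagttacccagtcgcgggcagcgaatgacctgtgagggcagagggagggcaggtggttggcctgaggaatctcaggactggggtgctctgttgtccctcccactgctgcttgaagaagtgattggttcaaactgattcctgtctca

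The forkhead core was searched on both strands in the 250 bases before each start. It was present in 3.17% of the 32851 windows in the RefSeq table and in 2 of the 34 windows of members, which belong to 28 of the 42 genes. These were the windows of Atp6v1b1 and of the second listed start of Slc26a1. Both are printed above, so the printed windows overstate how often windows of members hold the core. The table lists 2 starts each for Slc26a1 and Slc4a4, and the deposited gene-level values do not separate transcripts from different starts. The windows shown for these 2 genes lie inside the loci given further on, so each precedes a start downstream of its locus's 5′ end.

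The targeted gene did not check the labels. Shroom3 had 10.80, 10.91 and 10.89 in knockdown libraries, against 10.94, 10.85, 11.36 and 11.06 in control libraries (log2 fold change -0.19, SE 0.11; limma, BH-adjusted p = 0.417). Library medians lay between 9.15 and 9.16, and sequencing depth is unknown. Knockdown replicate 3 and control replicate 4 had titles starting with CB6 and the other libraries titles starting with G. The deviations of these CB6 libraries from their group means mirrored each other across all 12958 genes (r = -0.958) and across the 42 members (r = -0.909), with genes not being independent. If values were adjusted for title style before deposit, p-values without that term are too small, so results with it and within the libraries titled G are given too. P-values measure the spread between these animals, 1 library each.

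Of the 42 members, 6 passed the test (14.3%), beside 3.02% of all genes (adjusted p under 0.05 from limma, with Benjamini-Hochberg adjustment over all genes, BH below). Slc4a1 and Atp6v1g3 rose, beside 0.996% of all genes, and Slc4a4, Car14, Slc26a1 and Slc26a7 fell, beside 2.02%. The median log2 fold change of the members was -0.01, against 0.02 over all genes. With 20 positive and 22 negative values, the members had no common direction. Knockdown and control libraries did not overlap for 10 members (23.8%), beside 18.4% of all genes. Slc4a1 and Car14 also passed with title style as a covariate, where 1.47% of all genes did. In the libraries titled G alone, 0 of the 42 members passed in limma, beside 0.309% of all genes. There 8 members were at an unadjusted p under 0.05, and the share of all genes at that level is not given. In the fit to all 7 libraries, 9 members were at an unadjusted p under 0.05 in limma, beside 18.4% of all genes.

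Which members passed depended on single libraries. Car14 alone passed without knockdown replicate 2, knockdown replicate 3 or control replicate 4, beside 1.03%, 1.13% and 1.13% of all genes. Without knockdown replicate 1, 5 members passed beside 1.57% of all genes, with Car4 in place of Atp6v1g3 and Slc26a7. Without control replicate 1 or 3, 4 members passed, beside 2.57% and 2.32% of all genes. Without control replicate 2, 7 passed beside 3.7%, with Atp6v0a4 and Atp6v0d2 added and Slc4a4 lost. The same 6 members passed with quantile normalization (3.35% of all genes), with median scaling (2.92%) and without genes that look filled in (3.36%). Without an intensity trend 4 passed, beside 2.42% of all genes, and in the upper part of genes by mean 5 of 27 members passed, beside 4.77%. At an adjusted p under 0.1, 7 members passed beside 6.53% of all genes, and at 0.01 only Car14 did, beside 0.957%.

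**Figure D1:**
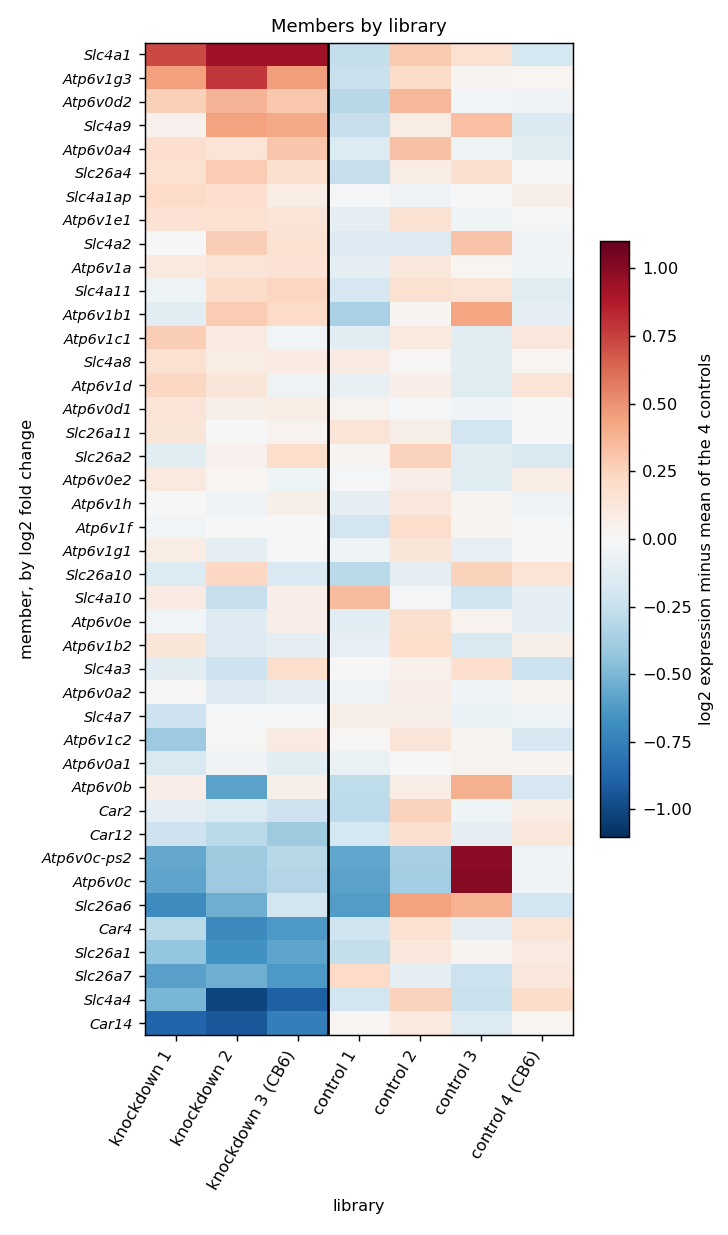
Colour gives the log2 expression of each of the 42 members in each library minus the mean of the 4 control libraries (rows ordered by log2 fold change, knockdown libraries left of control libraries). Slc4a1 and Atp6v1g3 at the top are high in all 3 knockdown libraries, Car14, Slc4a4, Slc26a7 and Slc26a1 at the bottom are low in all 3, and most pump subunits in the middle stay near 0.

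Slc4a1 encodes band 3, the chloride-bicarbonate exchanger of red cells, whose kidney form sits at the basolateral membrane of acid-secreting intercalated cells. Slc4a1 (ENSMUSG00000006574.15; GRCm38 chromosome 11, 102348824 to 102366203, minus strand) had 10.05, 10.26 and 10.25 in knockdown libraries, against 9.07, 9.61, 9.49 and 9.14 in control libraries. Every knockdown library lay above every control library, and controls 1 and 4 were lowest. The means were 10.19 ± 0.12 (SD, n = 3) in knockdown libraries, against 9.33 ± 0.27 (SD, n = 4) in controls, a 1.81-fold rise (log2 fold change 0.86, SE 0.14; limma, BH-adjusted p = 0.017). The difference was 0.76 within the libraries titled G and 1.11 within the CB6 pair. The call was lost without knockdown replicate 2 (log2 fold change 0.82), knockdown replicate 3 (0.83) or control replicate 4 (0.79).

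Of 6 red cell markers measured, 0 rose in limma, with 2 at an unadjusted p under 0.05. Alas2, the erythroid enzyme of haem synthesis, fell (log2 fold change -0.54; limma, BH-adjusted p = 0.0488), and the median was -0.07. The Alas2 call held in 5 of 14 alternatives: it was lost with title style as a covariate (adjusted p = 0.124), in the libraries titled G alone (0.382), without the genes that look filled in (0.0506) and without any one library other than control replicate 3, at log2 fold changes from -0.59 to -0.49. Summed antilogarithms of the 6 markers ran from 5512 to 5639 in knockdown libraries and from 4780 to 5587 in control libraries. That sum is weighted to the highest marker, Epb41 (means 11.69 in knockdown and 11.45 in control). The mean log2 expression of the 6 markers was lower in knockdown libraries (8.84 to 8.90) than in control libraries (8.96 to 9.01), without overlap. The other 12 listed markers were not analysed here. The red cell and kidney forms of Slc4a1 start at different promoters, and these values do not separate them.

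Atp6v1g3 encodes the kidney-enriched form of the V1 stator subunit G. Atp6v1g3 (ENSMUSG00000026394.5; chromosome 1, 138273738 to 138289462, plus strand) had 10.92, 11.25 and 10.93 in knockdown libraries, against 10.22, 10.67, 10.50 and 10.49 in control libraries. The groups did not overlap, and knockdown replicate 2 was highest. The means were 11.03 ± 0.19 (SD, n = 3) in knockdown libraries, against 10.47 ± 0.18 (SD, n = 4) in controls, a 1.48-fold rise (log2 fold change 0.56, SE 0.12; limma, BH-adjusted p = 0.0447). The call lay close to the threshold: it was lost with title style as a covariate (adjusted p = 0.087), without an intensity trend (adjusted p = 0.0679) and without any one library other than control replicate 2, at log2 fold changes from 0.45 to 0.62. The difference was 0.62 within the libraries titled G and 0.44 within the CB6 pair.

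**Figure D2:**
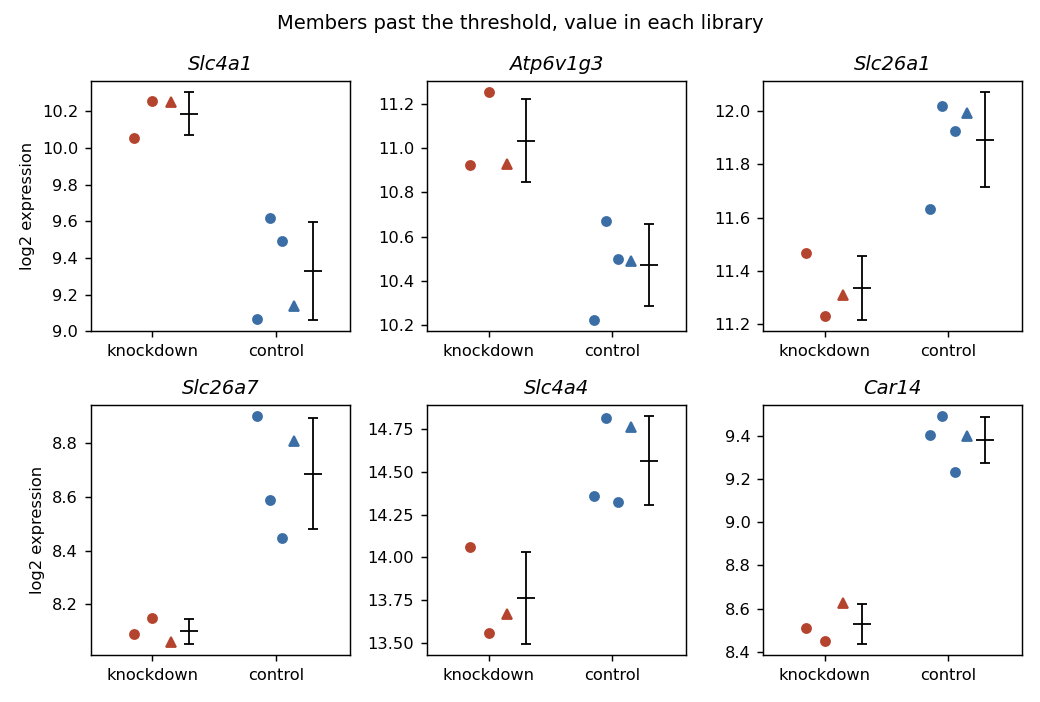
Each panel gives the log2 expression of a member past the threshold in the 3 knockdown and 4 control libraries (circles, libraries titled G; triangles, libraries titled CB6; black, mean and SD). In each of the 6 panels the groups do not overlap, with Slc4a1 and Atp6v1g3 higher in knockdown and Slc26a1, Slc26a7, Slc4a4 and Car14 lower.

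The other kidney-enriched pump subunits did not pass. Atp6v0d2, of the stalk that joins V0 to V1, had 10.87, 10.98 and 10.90 in knockdown libraries, against 10.31, 10.98, 10.58 and 10.57 in control libraries (log2 fold change 0.31; limma, BH-adjusted p = 0.271). Atp6v0a4, the membrane subunit a of intercalated cells, had 11.78, 11.74 and 11.90, against 11.45, 11.91, 11.54 and 11.47 in control libraries (log2 fold change 0.21; adjusted p = 0.348 by the same test). In both genes only control replicate 2 reached the knockdown libraries. Without it, Atp6v0d2 was at 0.43 (limma, BH-adjusted p = 0.0393) and Atp6v0a4 at 0.32 (adjusted p = 0.0352), both past the threshold. Atp6v0a4 shares 6555 bases of its locus with Tmem213 on the opposite strand (log2 fold change -0.13) and 1413 bases with D630045J12Rik on the same strand (log2 fold change -0.17), and whether strand was used in counting is not stated in the labels.

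Atp6v1b1, the intercalated cell form of the nucleotide-binding subunit B, had 9.95, 10.36 and 10.29 in knockdown libraries, against 9.72, 10.11, 10.51 and 9.97 in control libraries. Its groups overlapped (log2 fold change 0.12; limma, BH-adjusted p = 0.771), and it moved between 0.00 and 0.27 when single libraries were left out. Atp6v1c2, an alternative subunit C, had 8.07, 8.48 and 8.57, against 8.48, 8.60, 8.49 and 8.28 in control libraries (log2 fold change -0.09; adjusted p = 0.767 by the same test). Here knockdown replicate 1 was lowest of all.

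Each kidney-enriched subunit was also set against its widely used paralog in the same library, a difference that removes what both share in a library. Atp6v1g3 minus Atp6v1g1 was 0.03, 0.54 and 0.14 in knockdown libraries, against -0.53, -0.27, -0.22 and -0.32 in control libraries. This was the 1 of 5 pairs whose groups did not overlap, beside 18.4% of single genes. The share over all pairs of genes was not computed. Atp6v1g3 did not overlap on its own either, and Atp6v1g1 was at -0.01, so the pair largely repeats the Atp6v1g3 values. The knockdown mean exceeded the control mean by 0.57 for this pair, by 0.32 for Atp6v0a4 minus Atp6v0a1, by 0.21 for Atp6v0d2 minus Atp6v0d1 and by 0.16 for Atp6v1b1 minus Atp6v1b2. It was -0.21 for Atp6v1c2 minus Atp6v1c1. No test was run on these differences, since the genes were chosen with earlier results known.

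**Figure D3:**
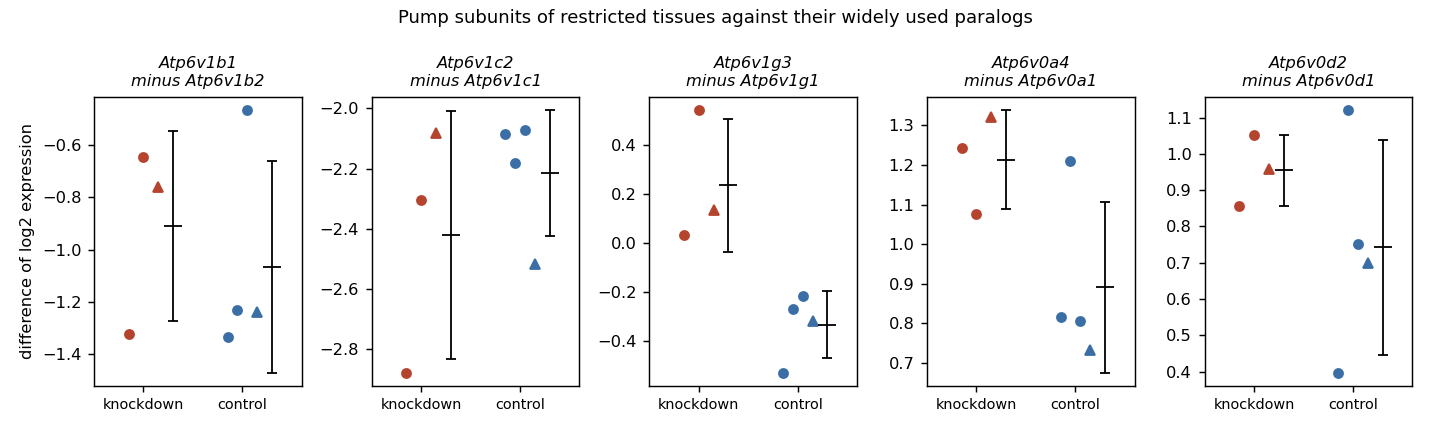
Each panel gives, for the 3 knockdown and 4 control libraries, the log2 expression of a pump subunit of restricted tissues minus that of its widely used paralog (circles, libraries titled G; triangles, libraries titled CB6; black, mean and SD). The groups separate for Atp6v1g3 minus Atp6v1g1, from 0.03 up in knockdown and from -0.22 down in control, and overlap for the other 4 pairs.

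Of the 15 pump subunits that most cells use, 0 passed in limma, beside 3.02% of all genes, and 1 was at an unadjusted p under 0.05, beside 18.4% of all genes. Their median log2 fold change was -0.01. The subunit at an unadjusted p under 0.05 was Atp6v1e1, of the stator stalk, at 11.51, 11.51 and 11.49 in knockdown libraries against 11.24, 11.51, 11.30 and 11.34 in control libraries (log2 fold change 0.16, 95% interval 0.00 to 0.31; limma, BH-adjusted p = 0.27). Atp6v1a, the catalytic subunit, had 13.26, 13.30 and 13.31, against 13.06, 13.28, 13.17 and 13.11 (log2 fold change 0.14, 95% interval -0.01 to 0.28). Among the 8 V1 subunits of this kind the log2 fold changes ran from -0.04 for Atp6v1b2 to 0.16. Atp6v1c1 was at 0.11, Atp6v1d at 0.10, Atp6v1h at 0.00, and Atp6v1f and Atp6v1g1 at -0.01 each.

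Of the V0 subunits used in most cells, Atp6v0d1, the common form of the connecting stalk, did not overlap between groups. It had 10.01, 9.93 and 9.94 in knockdown libraries, against 9.91, 9.85, 9.83 and 9.87 in control libraries, a log2 fold change of 0.09 that did not pass (limma, BH-adjusted p = 0.413). Atp6v0a1 and Atp6v0a2, the widely used membrane subunits a, were at -0.11 and -0.07, Atp6v0b at -0.15, Atp6v0e at -0.03 and Atp6v0e2 at 0.03. Atp6v0c, which encodes the proton-carrying ring, differed by -0.43, with an interval from -1.20 to 0.33. Its control replicate 3 was at 7.55 and its other libraries between 5.96 and 6.51. The pseudogene Atp6v0c-ps2, on chromosome 6, gave nearly the same values as Atp6v0c, differing by at most 0.0427 in a library, so the gene and its copy may share reads and both values are uncertain.

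**Figure D4:**
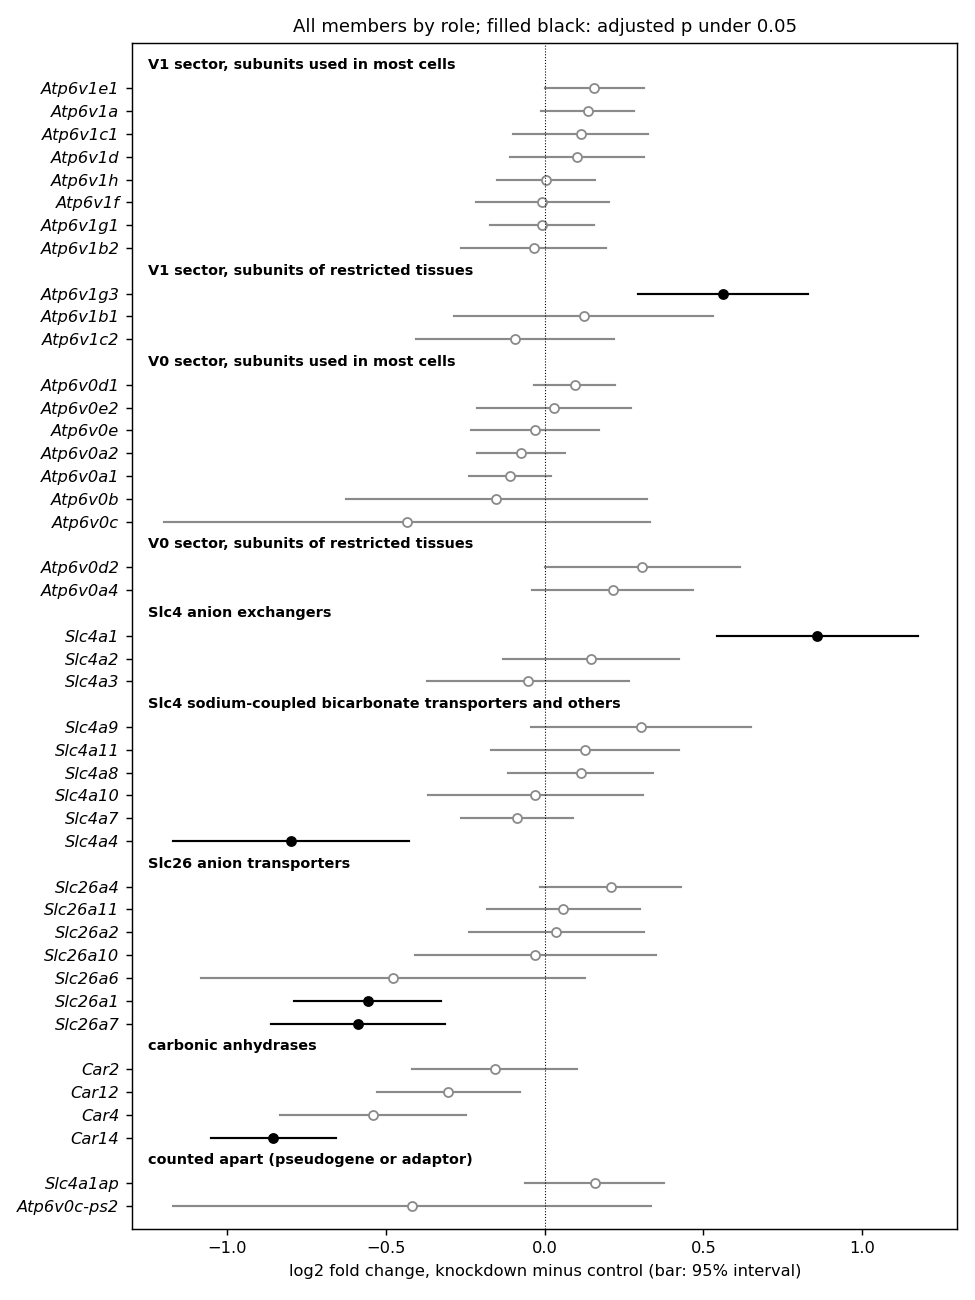
Points give the log2 fold change (knockdown minus control) of all 42 members by role, with bars for the 95% interval from limma; filled black points passed an adjusted p of 0.05. The 15 pump subunits used in most cells lie between -0.43 and 0.16, while the 6 members past the threshold lie beyond 0.5 on either side.

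Slc4a4 and Car14, both of bicarbonate reclamation, fell in knockdown glomeruli. Slc4a4, the electrogenic sodium-bicarbonate cotransporter of the proximal tubule's basolateral membrane (ENSMUSG00000060961.14; chromosome 5, 88886818 to 89239653, plus strand), had 14.06, 13.56 and 13.67 in knockdown libraries, against 14.36, 14.81, 14.32 and 14.76 in control libraries. The groups did not overlap, and knockdown replicate 1 was nearest to the controls. The means were 13.76 ± 0.27 (SD, n = 3) in knockdown libraries, against 14.56 ± 0.26 (SD, n = 4) in controls (log2 fold change -0.80, SE 0.16; limma, BH-adjusted p = 0.0399), which makes control 1.74-fold higher. The difference was -0.69 within the libraries titled G and -1.09 within the CB6 pair. The call was lost with title style as a covariate (adjusted p = 0.0783), without an intensity trend (adjusted p = 0.058) and without knockdown replicate 2 (log2 fold change -0.70), knockdown replicate 3 (-0.75), control replicate 2 (-0.72) or control replicate 4 (-0.73).

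Car14, a membrane-anchored carbonic anhydrase of the proximal tubule surface, had the smallest p of the members and rank 27 among all genes. Car14 (ENSMUSG00000038526.14; chromosome 3, 95897768 to 95904691, minus strand) had 8.51, 8.45 and 8.63 in knockdown libraries, against 9.40, 9.49, 9.24 and 9.40 in control libraries. The gap between the groups exceeded the range within either. The means were 8.53 ± 0.09 (SD, n = 3) in knockdown libraries, against 9.38 ± 0.11 (SD, n = 4) in controls (log2 fold change -0.85, SE 0.09; limma, BH-adjusted p = 0.0029), which makes control 1.81-fold higher. The difference was -0.90 within the libraries titled G and -0.77 within the CB6 pair. Car14 passed in 13 of 14 alternatives, each library left out included, and missed the threshold in the libraries titled G alone (limma, BH-adjusted p = 0.0639). Its locus shares 521 bases with Aph1a on the opposite strand (log2 fold change 0.07).

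The other carbonic anhydrases among the members were also at negative values without passing. Car4, the lipid-anchored enzyme of the proximal brush border, had 9.88, 9.48 and 9.54 in knockdown libraries, against 9.95, 10.34, 10.07 and 10.33 in control libraries (log2 fold change -0.54, SE 0.13; limma, BH-adjusted p = 0.0631). Car4 passed without knockdown replicate 1, at -0.66 (adjusted p = 0.0497), and when only the upper part of genes by mean was tested (adjusted p = 0.0474). Car12, a transmembrane carbonic anhydrase, had 13.04, 12.98 and 12.88, against 13.08, 13.45, 13.17 and 13.39 in control libraries (log2 fold change -0.30, SE 0.10; adjusted p = 0.148 by the same test). In both genes the groups did not overlap, by a narrow margin set by control replicate 1. Car2, the cytosolic enzyme of intercalated and proximal cells, overlapped between groups, at 12.12, 12.07 and 11.99 against 11.93, 12.47, 12.17 and 12.30 in control libraries (log2 fold change -0.16).

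Of 7 Slc26 members, 2 fell (28.6%), beside 2.02% of all genes, and 0 rose in limma. Slc26a1, a sulfate, oxalate and bicarbonate exchanger of the basolateral membrane of proximal tubule cells (ENSMUSG00000046959.16; chromosome 5, 108669878 to 108675569, minus strand), had 11.47, 11.23 and 11.31 in knockdown libraries, against 11.63, 12.02, 11.93 and 11.99 in control libraries. The groups did not overlap, and control replicate 1 was nearest to the knockdown libraries. The log2 fold change was -0.56 (SE 0.10; limma, BH-adjusted p = 0.0269), with -0.51 within the libraries titled G and -0.68 within the CB6 pair. All 5692 bases of its locus lie within Idua on the opposite strand, which encodes a lysosomal enzyme and had a log2 fold change of 0.28 (limma, BH-adjusted p = 0.132). Reads of these genes cannot be told apart where their exons overlap, since use of strand is not stated in the labels. The Slc26a1 call was lost with title style as a covariate (adjusted p = 0.055) and without knockdown replicate 2 (log2 fold change -0.51), knockdown replicate 3 (-0.54), control replicate 3 (-0.55) or control replicate 4 (-0.52).

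Slc26a7, a chloride-bicarbonate exchanger known from acid-secreting intercalated cells in the outer medulla, fell, while Slc4a1, also known from such cells, rose. Control replicate 1 was the highest control for Slc26a7 (8.90) and the lowest for Slc4a1 (9.07). Which cells the Slc26a7 RNA came from here was not tested. Slc26a7 (ENSMUSG00000040569.13; chromosome 4, 14502430 to 14621805, minus strand) had 8.09, 8.15 and 8.06 in knockdown libraries, against 8.90, 8.59, 8.45 and 8.81 in control libraries. The knockdown libraries lay close together below all controls. The log2 fold change was -0.59 (SE 0.12; limma, BH-adjusted p = 0.0407), with -0.53 within the libraries titled G and -0.75 within the CB6 pair. The call was lost with title style as a covariate (adjusted p = 0.0959) and without any one library other than control replicate 2 or 3, at log2 fold changes from -0.61 to -0.52.

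Transporters of bicarbonate-secreting intercalated cells did not pass. Slc26a4, or pendrin, the apical chloride-bicarbonate exchanger of these cells, had 10.85, 10.95 and 10.85 in knockdown libraries, against 10.42, 10.75, 10.85 and 10.68 in control libraries (log2 fold change 0.21; limma, BH-adjusted p = 0.297). Slc4a9, of their basolateral membrane, had 10.19, 10.58 and 10.56, against 9.89, 10.22, 10.47 and 9.98 (log2 fold change 0.30; adjusted p = 0.329 by the same test). Control replicate 3 reached the knockdown range for Slc26a4, and control replicates 2 and 3 did for Slc4a9. Each differed upward within the libraries titled G (0.22 for Slc26a4 and 0.19 for Slc4a9) and within the CB6 pair (0.17 for Slc26a4 and 0.58 for Slc4a9).

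The remaining Slc4 and Slc26 carriers overlapped between groups. Slc4a2, the widely used anion exchanger, had 9.80, 10.07 and 9.96 in knockdown libraries, against 9.66, 9.66, 10.11 and 9.76 in control libraries (log2 fold change 0.15). Slc4a3, its relative of heart and brain, was at -0.05, and Slc4a7, an electroneutral sodium-bicarbonate cotransporter, at -0.09. Slc4a8 and Slc4a10, sodium-coupled carriers known best from brain, were at 0.11 and -0.03, and Slc4a11 at 0.13. Slc26a2, a sulfate carrier, was at 0.04, Slc26a11 at 0.06 and Slc26a10 at -0.03. Slc26a6, an apical chloride, oxalate and bicarbonate exchanger of the proximal tubule, was low in the tables, at 5.82, 5.97 and 6.31 in knockdown libraries against 5.90, 6.96, 6.90 and 6.30 in control libraries (log2 fold change -0.48; limma, BH-adjusted p = 0.382). The adaptor gene Slc4a1ap averaged 7.09 ± 0.07 in knockdown libraries (SD, n = 3), against 6.93 ± 0.05 in controls (SD, n = 4), which did not overlap but did not pass (log2 fold change 0.16; adjusted p = 0.433 by the same test).

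Control libraries differed among themselves. Control replicate 2 was the highest control for 23 of the 42 members and control replicate 1 the lowest for 26. The matching shares over all genes were not computed. Every listed podocyte marker was higher in control replicate 1 than in control replicate 2 (Wt1 at 12.92 and 11.98). Every listed proximal tubule marker was lower there (Lrp2 at 15.69 and 16.04). Whether this bears on the members was not tested. The median SD within groups was 0.16 for the members and 0.14 over all genes.

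Lists of related genes outside the named families held few calls. Over all genes, 3.02% passed, 18.4% were at an unadjusted p under 0.05 in limma, and 7276 of 12958 had positive values. Of 14 measured genes for pump accessory proteins and assembly 0 passed in limma, with 5 at an unadjusted p under 0.05, 10 positive values and a median log2 fold change of 0.11. Tcirg1, which encodes the lysosomal and osteoclast form of subunit a and was picked out after its values were seen, had 9.14, 8.88 and 8.98 in knockdown libraries, against 8.77, 8.32, 8.53 and 8.48 in control libraries (log2 fold change 0.47; limma, BH-adjusted p = 0.0779). Of 15 sodium-proton exchangers and related carriers 0 passed in limma, with 2 at an unadjusted p under 0.05 and a median of -0.08. Slc9a3, the apical sodium-proton exchanger of the proximal tubule, likewise picked out afterwards, was at -0.17 (limma, BH-adjusted p = 0.254). Of 6 other carbonic anhydrases Car13, a cytosolic form, fell (log2 fold change -0.62; limma, BH-adjusted p = 0.0488). In this list 2 genes had positive values, and the median was -0.11. The Car13 call held in 6 of 15 alternatives: it was lost with title style as a covariate (adjusted p = 0.0998), in the libraries titled G alone (0.383), without an intensity trend (0.0652) and without any one library other than control replicate 3, at log2 fold changes from -0.69 to -0.53.

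Acid-base regulators and ammonia genes numbered 15, of which Pck1, the gluconeogenic enzyme that acidosis raises in proximal tubules, rose by 1.49 on the log2 scale (limma, BH-adjusted p = 0.00102) around a list median of -0.01. Of 32 lysosome genes Gusb, a lysosomal glucuronidase, fell (log2 fold change -0.96; limma, BH-adjusted p = 0.00771), and the list median was 0.02, equal to that over all genes to 2 decimals.

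Markers of the cells that carry these transporters were present, and some passed the test. Over all genes, 0.996% rose, 2.02% fell and 7276 of 12958 had positive log2 fold changes. In bulk RNA, fewer cells of a type and less RNA per cell cannot be told apart. Of 17 measured intercalated cell markers, 15 had positive log2 fold changes (median 0.19) and 2 rose: Aqp6, a water channel of acid-secreting intercalated cells, by 1.12 (limma, BH-adjusted p = 0.0321) and the receptor Kit by 0.59 (adjusted p = 0.0237). Both calls held in 8 of 14 alternatives and were lost with title style as a covariate, in the libraries titled G alone and without knockdown replicate 2, knockdown replicate 3 or control replicate 4. The Aqp6 call was also lost without control replicate 1 (log2 fold change 1.12) and the Kit call without knockdown replicate 1 (0.58). Over the libraries left out in turn, the log2 fold change ran from 0.96 to 1.27 for Aqp6 and from 0.55 to 0.65 for Kit. The defining factor Foxi1 had 9.71, 9.49 and 9.56 in knockdown libraries, against 9.01, 9.55, 9.43 and 9.31 in control libraries (log2 fold change 0.26; limma, BH-adjusted p = 0.319). The ammonia channel Rhcg differed by 0.03. The 2 markers with negative values were Tmem213 at -0.13 and Hmx2 at -1.05 (limma, BH-adjusted p = 0.307). Hmx2 values were low, between 3.07 and 5.70. Summed antilogarithms of the list ran from 46108 to 56612 in knockdown libraries and from 45146 to 54815 in control libraries. That sum is weighted to Adgrf5 (means 14.55 in knockdown and 14.52 in control) and Tfcp2l1 (13.84 and 13.72). The list's mean log2 expression overlapped, at 9.44 to 9.78 in knockdown libraries and 9.32 to 9.66 in control libraries. No marker was at the table minimum. The part of intercalated cell content in the Slc4a1 and Atp6v1g3 values was not tested.

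Of 20 proximal tubule markers, 8 fell and 1 rose, beside 2.02% and 0.996% of all genes, with a median log2 fold change of -0.39. The gene that rose was Pck1. The drug-metabolizing enzyme Cyp2e1 had a log2 fold change of -3.26 and the urate transporter Slc22a12 one of -2.26, while the endocytic receptor Lrp2 was at -0.21 and the phosphate transporter Slc34a1 at -0.35, neither past the threshold. The list's summed antilogarithms ran from 257632 to 322179 in knockdown libraries and from 269674 to 344012 in control libraries. That sum is weighted to the highest markers, Lrp2 and Pck1 among them. The list's mean log2 expression did not overlap, at 12.49 to 12.87 in knockdown libraries and 13.05 to 13.40 in control libraries. The part of proximal tubule content in the Slc4a4, Car14 and Slc26a1 values was not tested. Of 11 principal cell markers and 10 markers of the thick limb and distal convoluted tubule 0 passed in limma, with 1 and 2 at an unadjusted p under 0.05 and medians of 0.05 and 0.13. Among the glomerulus's own cells, 4 of 12 podocyte markers fell (median -0.30), as did 2 of 8 mesangial markers (median -0.05). Of 9 endothelial markers 0 passed in limma, with 3 at an unadjusted p under 0.05 (median -0.23). Of 6 immune markers 0 passed, with 0 at an unadjusted p under 0.05 (median 0.02). Values were negative for 10 of 12 podocyte, 5 of 8 mesangial, 9 of 9 endothelial and 2 of 6 immune markers, beside 5682 of 12958 genes.

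**Figure D5:**
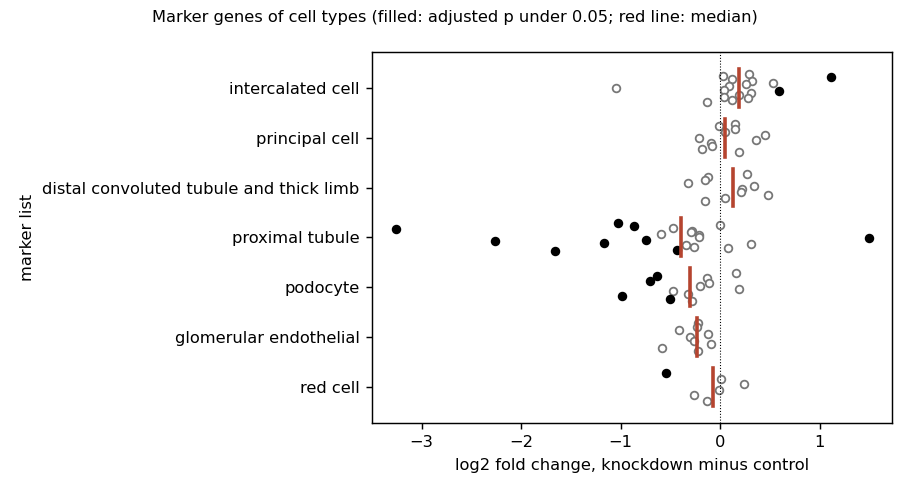
Points give the log2 fold change (knockdown minus control) of each measured marker in 7 cell type lists, filled where the adjusted p was under 0.05, with a red line at the list median. Proximal tubule markers centre on -0.39 with a range beyond -3, and intercalated cell markers on 0.19.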

How the data were processed

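Glomerular RNA of 7 mice (3 knockdown, 4 control) was sequenced, 1 library per animal. Per the labels' protocols, glomeruli were taken with a magnet and sieving after bead perfusion, and poly-A RNA was selected, with ribosomal RNA depletion. The submitters' processing notes name the aligner BWA and the build mm10. How reads were counted and normalized, whether strand was used and which BWA version was run is not given in the sources used here. Per the files, the authors deposited values on a log scale for 12958 symbols, read here as log2. With another base, log2 fold changes would scale by a common factor and the linear folds printed would be other values. Without counts, depth and counting error are unknown.

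The comparison of knockdown with control used limma 3.58.1 (R 4.3.3) on all genes with its intensity trend, with Benjamini-Hochberg adjustment over all genes and a threshold of 0.05. Requiring 3 libraries over the lowest value of the tables (2.32) removed 0 genes. Loci are from GENCODE M21 on GRCm38, which held all 42 members. The fit was tested on simulated data. In 107 genes, none of them members, values in the libraries titled G differed only by fixed offsets within 0.003, as a fill-in value would leave.

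Members and lists were chosen with earlier results of these data known. Named with values were members past the threshold, the 2 smallest p in each role group, members whose groups did not overlap and 5 paralog pairs; for the other lists, up to 3 genes past the threshold, plus defining markers. Tcirg1, Slc9a3 and the genes overlapping members were picked after their values were seen. Other members are given by value or range. The alternatives tried were median scaling, quantile normalization, testing the upper part of genes by mean, no filter, no trend, title style as a covariate, the libraries titled G alone, each library left out and other thresholds. Leaving out the 107 genes was added after seeing the data.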

Additional observations from a re-analysis of the deposited data

How the results depend on the processing

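No paired analysis was possible because replicate numbers here only name libraries in the order of their records and the labels pair no knockdown with a control library. Title style, a grouping of libraries by title and not a pairing of animals, was fitted as a covariate. The count of genes past the threshold was 391 over all genes and 6 among the members. With title style as a covariate these were 191 and 2, in the libraries titled G alone 40 and 0, at an adjusted p under 0.01 (limma, Benjamini-Hochberg) 124 and 1, and at an adjusted p under 0.1 they were 846 and 7. With a library left out they ran from 134 to 480 and from 1 to 7, being 134 and 1 without knockdown replicate 2, 147 and 1 without knockdown replicate 3, and 146 and 1 without control replicate 4. Each of these fits had fewer libraries, as did the fit without control replicate 2, where 480 genes and 7 members passed. Why the counts differed was not tested. The members' median log2 fold change lay between -0.03, reached without control replicate 1, and 0.04, reached without control replicate 2. The 6 members past the threshold kept their sign in every alternative run. Without the fill-in genes 432 genes and the same 6 members passed.

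Signs turned for genes near 0. In the libraries titled G alone, log2 fold changes were 0.0164 for Atp6v1b2, -0.0420 for Atp6v1h, 0.0905 for Slc26a10, -0.0987 for Slc26a2 and -0.0783 for Rhcg. Atp6v1f was at 0.0017 with quantile normalization and Atp6v1h at -0.0011 with median scaling. With a library left out, log2 fold changes ran from -0.1181 to 0.0293 for Atp6v1b2, -0.0792 to 0.0574 for Atp6v1f, -0.0554 to 0.0370 for Atp6v1g1, -0.0283 to 0.0476 for Atp6v1h, -0.1938 to 0.0562 for Atp6v1c2, -0.2629 to 0.0664 for Atp6v0b, -0.0835 to 0.0272 for Atp6v0e. They ran from -0.0158 to 0.0665 for Atp6v0e2, -0.1765 to 0.0377 for Slc4a3, -0.1031 to 0.0855 for Slc4a10, -0.1589 to 0.0554 for Slc26a10, -0.0115 to 0.1051 for Slc26a11, -0.0424 to 0.1218 for Slc26a2, -0.0697 to 0.1335 for Rhcg and -0.2855 to 0.0287 for Tmem213. The cause was not tested.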
